A study of Macaca mulatta with 4 samples.

Results

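In infarcted rhesus heart, 504 wide HIF-1α binding regions were called at 4 weeks after the coronary artery was tied and had no counterpart in the list of the 6 h infarct. They are described here as a set, out of 7399 HIF-1α peaks called at 4 weeks and 13351 called at 6 h. A 4-week peak belonged to the set if it was at least 350 bp wide, shared no base with any 6 h peak, lay on chromosomes 1 to 20 without 16, 19 and 20, and had its midpoint at least 2 Mb from both chromosome ends. The end of a chromosome was taken as the last peak end on it in either list, which can fall short of the true end. The regions were thus selected on peak width and on the calls of both lists, so their widths, their absence from the 6 h list and their distances to 6 h peaks are given as descriptions, with no test.

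HIF-1 is a transcription factor made of HIF-1α and its partner ARNT. With enough oxygen, prolyl hydroxylases mark HIF-1α for destruction by the von Hippel-Lindau complex. When oxygen is short HIF-1α accumulates in the nucleus, pairs with ARNT and binds DNA at hypoxia response elements. These lie near genes of glycolysis, vessel growth and iron handling among others. In the heart, HIF-1 is known for its part in the response to ischemia, and the study asked how copper regulates its activity.

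The chromatin came from male rhesus macaques (Macaca mulatta) in which myocardial infarction was made by ligation of the left anterior descending (LAD) coronary artery. The 4 samples are 1 HIF-1α ChIP library and 1 input library (no antibody) of infarcted heart at 6 h, and the same pair at 4 weeks. Both groups carry the infarct, and no sample of uninjured heart was among those used here. Whole tissue was ground, so the cell types behind a peak cannot be told apart, and how many animals went into a library is not given in the sources used here. Each list holds peak positions alone, so read depth and the height of a peak are unknown, and "called" means only that the authors' peak caller reported the region. With 1 ChIP library at each time there is no replicate check of any difference below, and the intervals given are for counting error alone and do not allow for ties between neighbouring peaks.

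The 504 regions were what remained of 1452 wide peaks at 4 weeks. Of these wide peaks 496 were on scaffolds not placed on a chromosome, 4 on chromosome X, 150 on chromosomes 16, 19 and 20, and 80 within 2 Mb of an end of the chromosomes kept. Of the 722 left, 218 overlapped a 6 h peak. The wide 4-week peaks were therefore without a 6 h partner in 69.8% of cases (95% exact binomial interval 66.3 to 73.1%), while over all widths under the same position rule 83.2% of 3159 peaks had none. Being wide thus went with more sharing, and among narrower 4-week peaks 87.1% (85.7 to 88.4%) had no 6 h partner. Any shared base counted as sharing, so a wider peak had more bases that could meet a 6 h peak. How far this sets the direction was not tested. With the lists exchanged, 1219 of 1449 wide 6 h peaks had no 4-week partner, or 84.1% (82.1 to 86.0%), against 92.1% over all widths. The lists differ in length: set against only the widest 7399 peaks of the 6 h list, 77.1% of wide 4-week peaks had no partner.

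Most regions were only moderately wide. Their median width was 413 bp (quartiles 376 and 491 bp), and together they covered 226.3 kb. Of the 504, 216 were below 400 bp, 167 from 400 bp to below 500 bp, 73 from 500 bp to below 600 bp and 48 wider than that. The part of 4-week peaks without a 6 h partner was lower in the wider classes. It was 78.5% (73.2 to 83.2%) from 350 bp to below 400 bp, 66.3% (60.1 to 72.1%) in the next class, 67.6% (57.9 to 76.3%) in the third and 55.2% (44.1 to 65.9%) from 600 bp on. Wide 4-week peaks that did overlap a 6 h peak were wider, with a median of 454.5 bp, and wide 6 h-only peaks had a median of 431 bp.

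**Figure D1:**
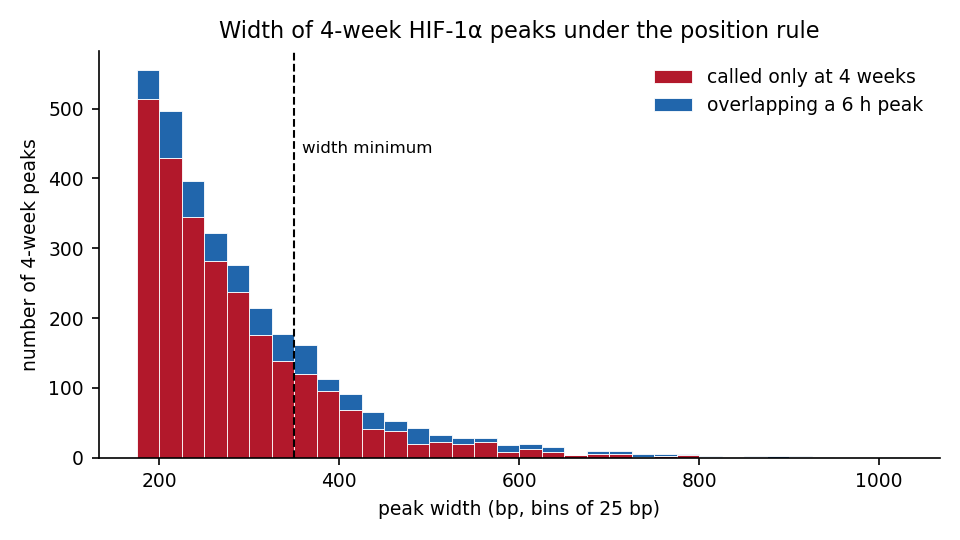
Number of 4-week HIF-1α peaks under the position rule by width in bins of 25 bp, with peaks called only at 4 weeks in red, those overlapping a 6 h peak stacked above in blue, and the width minimum of 350 bp as a dashed line. The red bars right of the line are the 504 regions, most of them below 500 bp.

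The width limit cut through a continuous distribution. Just inside it, 21 regions measured 350 to 354 bp, 6 of them exactly 350 bp, and just outside it 30 peaks called only at 4 weeks measured 345 to 349 bp. At the overlap limit, 7 regions lay less than 50 bp from a 6 h peak, while 9 wide peaks were left out for an overlap of 5 to 49 bp. The median overlap of the 218 shared wide peaks was 260.5 bp. At the limit on distance to the chromosome end, the 3 regions nearest to it lay 2024.2 to 2105.5 kb from an end, and the 3 peaks nearest to it on the other side 1821.9 to 1974.8 kb.

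The widest region was on chromosome 7 at 131705348 to 131706268. The peak called there at 4 weeks was 921 bp wide, and the nearest 6 h peak was 214 kb away. The second widest, on chromosome 8 at 30128945 to 30129807, spanned 863 bp and had a 6 h peak of 487 bp at a gap of 9.69 kb. A region of 843 bp on chromosome 4, at 27536294 to 27537136, had a 6 h peak 5.88 kb away. Of the 10 widest regions, 5 had a 6 h peak within 10 kb and 4 had none within 100 kb, so great width occurred both beside 6 h binding and far from it.

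Among the widest with 6 h binding close by were a 779 bp region on chromosome 14 at 55613463 to 55614241 and a 761 bp region on chromosome 1 at 154947175 to 154947935, with 6 h peaks at gaps of 538 and 394 bp. On chromosome 2, the 796 bp region at 50874946 to 50875741 had a 6 h peak 9.61 kb away, and the 766 bp region at 56423864 to 56424629 one at 12.3 kb. The others had no 6 h peak nearby. On chromosome 3 at 133161302 to 133162110 the 4-week peak spanned 809 bp, with the nearest 6 h peak at 161 kb. On chromosome 5 at 79234852 to 79235645 it spanned 794 bp (nearest 6 h peak at 235 kb), and on chromosome 6 at 149880426 to 149881213 it spanned 788 bp (560 kb). In all, 18 of the 504 regions were wider than 700 bp. No gene was assigned to any of these positions, because the gene table used here is of an assembly that cannot be matched to the lists.

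The 6 h list came close to some of the regions. A 6 h peak lay within 1 kb of 62 regions (12.3%, interval 9.56 to 15.5%), within 10 kb of 102 (20.2%, 16.8 to 24.0%) and within 100 kb of 282 (56.0%, 51.5 to 60.3%). The median gap was 80.8 kb, with quartiles of 19.5 and 202 kb. Narrower 4-week-only peaks were set beside them under the same position rule. Of these 2123 peaks, 8.15% (7.02 to 9.39%) had a 6 h peak within 1 kb, 14.2% (12.8 to 15.8%) within 10 kb and 50.02% within 100 kb, and their median gap was 99.9 kb. At 10 kb the share was 6.01 percentage points higher for the wide regions, a description of sets that width and 6 h overlap defined. With the lists exchanged, 14.7% (12.7 to 16.8%) of wide 6 h-only peaks had a 4-week peak within 10 kb. Among narrower 6 h-only peaks it was 9.09% (8.31 to 9.93%), so the contrast was not particular to 4 weeks. The wide regions also had more 6 h peaks around them, with a median of 4 within 500 kb against 3 for the narrower peaks.

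**Figure D2:**
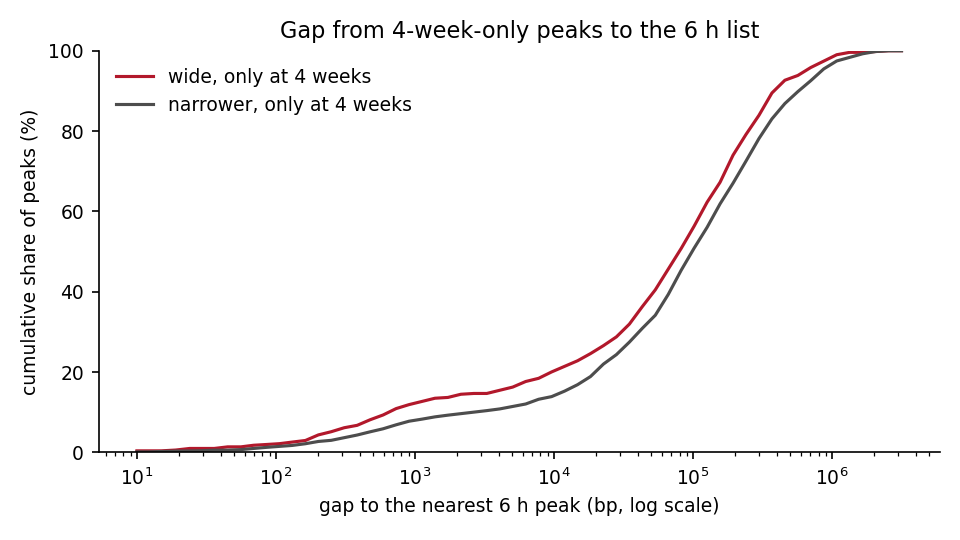
Cumulative share of 4-week-only peaks (%) against the gap to the nearest 6 h peak in bp on a log axis, for the 504 wide regions (red) and the 2123 narrower peaks (grey). At 10 kb the red line stands at 20.2% and the grey line at 14.2%.

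The closest neighbours were separated by a few bases. On chromosome 14 a 6 h peak of 459 bp at 95350831 to 95351289 ended 1 bp before a 4-week region of 420 bp at 95351291 to 95351710. On chromosome 12 the 552 bp region at 84916084 to 84916635 was followed after 9 bp by a 6 h peak of 255 bp. On chromosome 13 the 528 bp region at 104716058 to 104716585 was followed after 16 bp by a 6 h peak of 205 bp. In these places the regions called at the 2 times stood side by side without sharing a base.

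The next nearest were a 545 bp region on chromosome 7 at 111903282 to 111903826 and a 516 bp region on chromosome 4 at 109260021 to 109260536, with 6 h peaks at 22 and 24 bp. In 4 of these 5 pairs the 4-week region was the wider of the pair. The same held in 56 of the 62 cases with a 6 h peak within 1 kb, where the regions had a median of 439 bp and the 61 distinct 6 h peaks nearest to them, 1 of which was nearest to 2 regions, one of 239 bp. The regions had to be at least 350 bp wide and their neighbours did not, so this direction is in part set by the rule. Of those 61 neighbours 11 (18.0%, 9.36 to 29.98%) were at least 350 bp wide themselves, against 21.6% of all 6 h peaks under the position rule. In 2 of the 62 cases 6 h peaks stood within 1 kb on both sides.

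Other regions lay far from anything called at 6 h. In 222 regions (44.0%, 39.7 to 48.5%) no 6 h peak was within 100 kb, in 35 (6.94%, 4.88 to 9.53%) none within 500 kb and in 9 (1.79%, 0.820 to 3.36%) none within 1000 kb. The most distant was a 361 bp region on chromosome 5 at 74496226 to 74496586, which had no 6 h peak for 2230.1 kb. It was followed by a 447 bp region on chromosome 1 at 70229214 to 70229660, at 1939.3 kb, and a 350 bp region on chromosome 5 at 125882684 to 125883033, at 1275.9 kb. These sites stood in long stretches with no called 6 h binding.

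Chromosome 2 held 4 of the 10 most distant regions. They were at 72909142 to 72909699 (558 bp wide, 1171.3 kb from a 6 h peak), 26829582 to 26829935 (354 bp, 1060.1 kb), 71989499 to 71989938 (440 bp, 1046.2 kb) and 186347505 to 186347959 (455 bp, 1007.6 kb). The first and the third of these lay in the same stretch, between 6 h peaks that ended at 70943343 and started at 74080974. The remaining 3 were on chromosome 4 at 60128553 to 60128943 (391 bp, 1101.5 kb), chromosome 12 at 17721831 to 17722238 (408 bp, 1079.0 kb) and chromosome 6 at 26806964 to 26807327 (364 bp, 990.1 kb). In 3 of the 10, another 4-week peak was within 100 kb, and in 4 none was within 500 kb. All but 1 of the 10 were below 500 bp wide.

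Within the set, 6 h binding nearby was set out by width class. The share with a 6 h peak within 10 kb was 18.5% (13.6 to 24.4%) below 400 bp, 18.0% (12.5 to 24.6%) from 400 bp to below 500 bp, 24.7% (15.3 to 36.1%) from 500 bp to below 600 bp and 29.2% (16.95 to 44.1%) above. At 1 kb the shares in the same order were 11.6% (7.63 to 16.6%), 8.38% (4.66 to 13.7%), 20.5% (11.98 to 31.6%) and 16.7% (7.48 to 30.2%). At both distances the 2 classes from 500 bp on had the higher values, and the intervals of single classes overlapped.

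The spacing of the regions within the 4-week list was not used to choose them. They were mostly solitary: another 4-week peak was within 10 kb of 60 regions (11.9%, 9.21 to 15.1%), against 8.90% (7.72 to 10.2%) of the narrower 4-week-only peaks and 14.7% (10.3 to 20.1%) of wide 4-week peaks shared with 6 h. The interval of the wide regions overlapped both others. The wide 6 h-only peaks had another 6 h peak within 10 kb in 30.8% of cases (28.2 to 33.4%), in a list that is longer. The nearest 4-week peak of those 60 regions was a narrower 4-week-only peak in 40 cases, a peak overlapping the 6 h list in 12 and another of the wide regions in 8, and 24 of the 60 also had a 6 h peak within 10 kb. With both lists counted, 366 of the 504 regions (72.6%, 68.5 to 76.5%) had no other peak within 10 kb, and 169 (33.5%, 29.4 to 37.8%) had none within 100 kb. For the narrower 4-week-only peaks these shares were 79.6% (77.8 to 81.3%), an interval above that of the wide regions, and 38.5% (36.5 to 40.6%), an interval that overlapped it. Shares over both lists include distances to 6 h peaks, and both sets were chosen by 6 h overlap, so they are descriptions only.

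Neighbouring regions of the set were a median of 2688.8 kb apart. Of these regions, 28 (5.56%, 3.72 to 7.93%) lay within 50 kb of another, in 14 pairs and no larger run. This count was not set beside the same count for other peaks. The longest pair was on chromosome 7 at 126450039 to 126486482, where regions of 567 and 643 bp stood at the ends of 36.4 kb with 1 peak called at 6 h between them. The pair on chromosome 8 at 119049011 to 119072073 (23.1 kb, widths 370 and 605 bp) held no 6 h peak, nor did the pair on chromosome 14 at 6962545 to 6974680 (12.1 kb, 450 and 595 bp), which lay among 4 peaks of the 4-week list. Another pair with no 6 h peak was on chromosome 7 at 18462883 to 18468843 (5.96 kb, 366 and 428 bp).

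The other 6 of the 10 longest pairs had called 6 h binding between their members. They were on chromosome 15 at 8868411 to 8903667, chromosome 9 at 99402275 to 99433202, chromosome 4 at 160882193 to 160907618 and chromosome 2 at 7194136 to 7206155, each with 1 peak at 6 h, on chromosome 12 at 123292964 to 123304214 with 2 and on chromosome 2 at 90250889 to 90280548 with 3. Over all 14 pairs, 8 contained a 6 h peak and 6 did not. In 4 pairs, all outside the 10 longest and singled out after their values were seen, the whole span was under 2 kb. In the pair on chromosome 7 at 116531138 to 116532966, regions of 360 and 491 bp flanked a 6 h peak of 212 bp at 116532221 to 116532432. In the pair on chromosome 1 at 49981630 to 49982642 the gap was 177 bp, the smallest between any of the regions.

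In windows of 1 Mb, 426 windows held a region of the set and 65 held at least 2, counts not set beside those of other sets. The fullest windows had 4. On chromosome 5, the window from 140000001 to 141000000 had 4 wide regions among 6 peaks at 4 weeks, beside 6 peaks at 6 h. On chromosome 7, the window from 18000001 to 19000000 had 4 among 6, beside 5 at 6 h. A further 9 windows had 3 regions each. Among them, the windows from 90000001 on chromosome 2, from 84000001 on chromosome 12 and from 47000001 on chromosome 13 had no other 4-week peak under the position rule than these 3, while the 6 h list had 7, 2 and 9 peaks there. The region with the most 6 h binding around it was on chromosome 17 at 8945285 to 8945635 (351 bp), with 93 peaks of the 6 h list within 500 kb. At the other extreme 35 regions had none in that distance.

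The regions were spread over all 17 chromosomes kept, from 8 on chromosome 18 to 49 each on chromosomes 1 and 7. Their overall density was 0.210 per Mb (exact Poisson interval 0.192 to 0.229). The density was above this on chromosome 7 (0.296 per Mb, 0.219 to 0.392) and below it on chromosome 8 (0.121 per Mb, 0.0706 to 0.194), the only chromosomes whose intervals missed the overall value. With 17 intervals at the 95% level, about 1 in 20 misses by counting error alone. As a share of the 4-week peaks of a chromosome, the regions made up 15.95% overall (14.7 to 17.3%), from 10.8% (6.44 to 16.8%) on chromosome 8 to 19.6% (14.6 to 25.3%) on chromosome 2, and no chromosome's interval missed the overall share. Median widths were alike across chromosomes, from 397.5 bp on chromosome 15 to 427.5 bp on chromosome 13. The median gap to a 6 h peak went from 26.0 kb on chromosome 10 to 110 kb on chromosome 13.

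**Figure D3:**
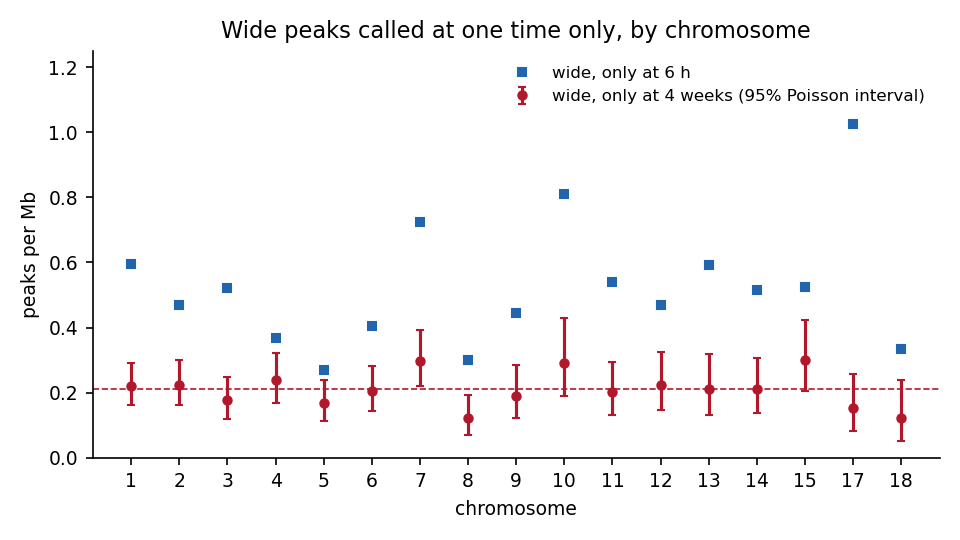
Peaks per Mb on each chromosome kept, for the 504 wide 4-week-only regions (red circles with exact 95% Poisson intervals, dashed line at their overall 0.210 per Mb) and for wide 6 h-only peaks (blue squares, without intervals). Chromosome 17 has the highest blue value, 1.03 per Mb, beside a red value of 0.153 per Mb.

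Among wide peaks called at 1 time only, the 4-week regions were 29.3% (27.1 to 31.5%), against the 1219 wide 6 h-only peaks. This share was high on chromosome 4 (39.2%, 29.7 to 49.4%) and low on chromosome 17 (13.0%, 7.27 to 20.8%), and the intervals of the other 15 chromosomes included the overall value. Chromosome 17 had 14 of the 4-week regions (0.153 per Mb, 0.0835 to 0.256), and its wide 6 h-only peaks were denser than on any other chromosome, at 1.03 per Mb. With chromosome 17 left out, the 4-week share was 30.3% (28.1 to 32.6%), a value inside the interval of chromosome 4. The caution above on intervals that miss by counting error holds here too.

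The regions were denser toward chromosome ends also beyond the 2 Mb that the rule removed. Their density was 0.412 per Mb (0.297 to 0.557) at 2 to 5 Mb from an end, 0.265 (0.193 to 0.354) at 5 to 10 Mb, 0.212 (0.166 to 0.267) at 10 to 20 Mb and 0.193 (0.173 to 0.215) farther inside. The first of these bands, with 42 regions, had an interval above those of the last 2. Narrower 4-week-only peaks went from 1.33 per Mb (1.12 to 1.58) in the first band to 0.835 (0.793 to 0.879) in the last. Wide 6 h-only peaks went from 0.971 per Mb (0.789 to 1.18) to 0.438 (0.408 to 0.470), with 1.04 (0.888 to 1.20) at 5 to 10 Mb, where 43 of 176 were on chromosome 17 and the value without that chromosome was 0.831 (0.696 to 0.985). By share, 8.33% (6.07 to 11.1%) of the wide regions, 6.41% (5.40 to 7.53%) of the narrower 4-week-only peaks and 8.12% (6.65 to 9.80%) of the wide 6 h-only peaks were in the first band. Farther than 20 Mb from an end were 68.5% (64.2 to 72.5%), 70.2% (68.2 to 72.2%) and 64.2% (61.4 to 66.8%) in the same order. The interval of the wide regions overlapped both others in both bands, while those of the narrower 4-week-only and the wide 6 h-only peaks did not overlap beyond 20 Mb.

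**Figure D4:**
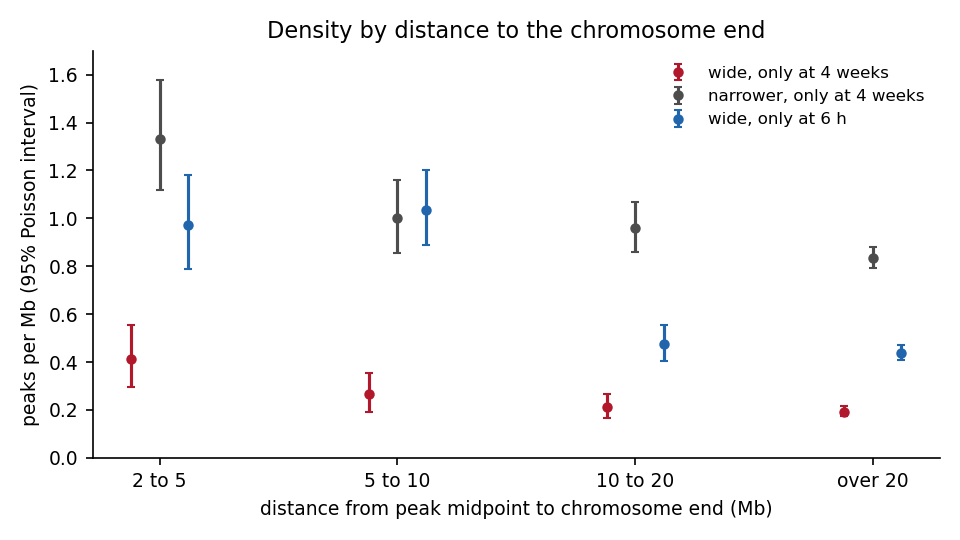
Peaks per Mb with exact 95% Poisson intervals by distance from the peak midpoint to the nearer chromosome end, for the 504 wide 4-week-only regions (red), narrower 4-week-only peaks (grey) and wide 6 h-only peaks (blue). The red values go from 0.412 per Mb at 2 to 5 Mb to 0.193 per Mb beyond 20 Mb.

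The row order of the deposited 4-week list was a further property the rule did not use. Rows ran in repeated passes along the chromosomes rather than once from start to end, and what they were ordered by is not given in the sources used here. Parts of the row order, such as the first 20% or 50%, were counted over peaks under the position rule alone, kept in deposited order. Early rows overlapped the 6 h list more often: among 4-week peaks under the position rule, 32.0% (28.4 to 35.8%) of the first 20% of rows did so and 13.0% (10.5 to 15.8%) of the last 20%, with 13.4%, 17.4% and 8.39% in between. Of the 504 wide regions, 281 (55.8%, 51.3 to 60.1%) were in the first 50% of rows. The share was 44.5% (42.3 to 46.6%) for narrower 4-week-only peaks and 70.2% (63.6 to 76.2%) for wide peaks shared with 6 h, so the regions stood between these sets, and the 3 intervals did not overlap. Within the set, wider regions came earlier, with 47.7% (40.9 to 54.6%) in the first 50% of rows below 400 bp and 72.9% (58.2 to 84.7%) from 600 bp on. Of the 10 widest regions, 7 were in the first 50% of rows. Wide 4-week peaks of any kind under the position rule went from 31.2% of the first 20% of rows to 17.9% of the last 20%. The list as a whole was not ordered by width. Median widths under the position rule were 281 bp in the first 20% of rows and 267 bp in the last, with 239.5 to 260 bp in between. Over all 7399 rows, the Spearman rank correlation of width with row was 0.026 (-0.131 in the 6 h list). The 6 h list had the same order of sets. In its first 50% of rows were 56.9% (54.1 to 59.7%) of wide 6 h-only peaks. The share was 46.4% (45.0 to 47.8%) for narrower 6 h-only peaks and 73.5% (67.3 to 79.1%) for wide shared ones. The early place was thus not particular to the 4-week regions.

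**Figure D5:**
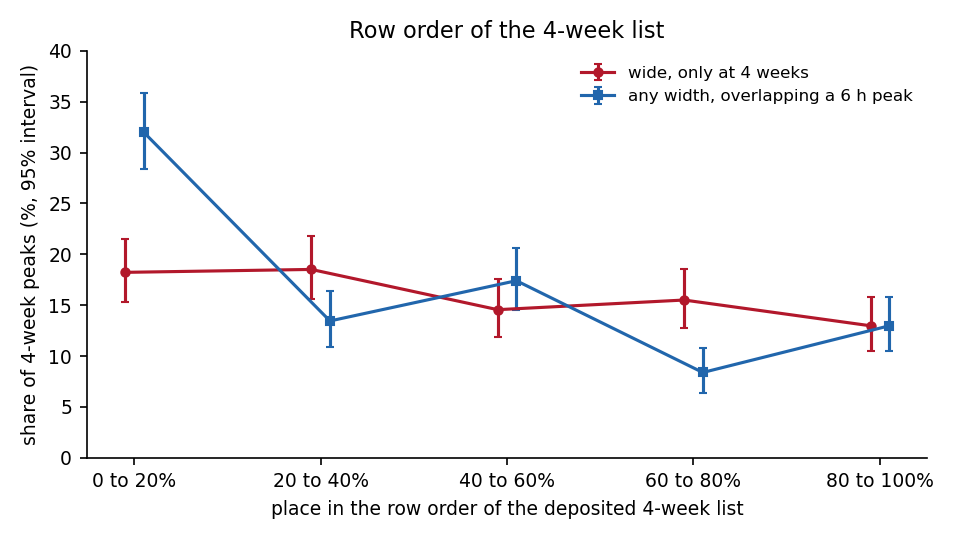
Share of 4-week peaks under the position rule (%, with exact 95% intervals) that were wide regions called only at 4 weeks (red) or that overlapped a 6 h peak at any width (blue). Shares are given for each 20% of the rows of these peaks alone, kept in deposited order. The red share goes from 18.2% in the first 20% of rows to 13.0% in the last, and the blue share from 32.0% to 13.0%.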

How the data were processed

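The submitters' processing notes name Bowtie2 2.0 and MACS2, with no role or order. The genome build, settings, filters and pooling of animals were not stated in the sources used here. Both deposited files hold 3 columns, the sequence name, start and end of each peak, made from a ChIP library against the input of its time point, per the file names; no score, height or p-value is among them, and depth is unknown. Starts were read as counted from 0, as in BED files, and are printed counted from 1; if the authors had already counted from 1, printed starts are 1 too high and widths 1 too low.

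Overlap, gaps between peak edges, spacing and densities were computed in Python 3.11.15 with pandas 2.3.3, numpy 2.4.6 and scipy 1.17.1; figures used matplotlib 3.10.9. Intervals are at the 95% level (exact Clopper-Pearson for shares, exact Poisson for densities). Densities use the span between the 2 Mb limits. Tested on simulated lists, the rule found all 400 planted regions of 1202 peaks and no other. The regions, measures and settings were chosen with earlier results of these data known. Named by fixed rule were the 10 widest, the 10 farthest from and 5 nearest to a 6 h peak, and up to 10 pairs within 50 kb, by span. Planned analyses of sequence, promoters and gene lists (HIF-1 targets, angiogenesis, copper handling, heart and other cell types) were not run, since no genome of the lists' build was used.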

Additional observations from a re-analysis of the deposited data

How the results depend on the processing

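Under alternative settings 42 values were computed: 20 lay inside the reported interval, or for counts within 1.5 times the number reported, and 22 lay outside. Only the 8 values of the difference from narrower peaks had a direction that could change, and none did. The number of regions was 819, 288 and 121 with width minimums of 300, 400 and 500 bp, as a moving limit makes it, and from 402 to 607 under the other settings. With these minimums, wide 4-week peaks had no 6 h partner in 73.6%, 64.4% and 62.1% of cases, and wide 6 h peaks no 4-week partner in 86.5%, 82.1% and 75.7%. The 4-week share was 61.2% with no 6 h peak within 1 kb allowed, 84.1% with a reciprocal overlap of 50% required for sharing, and 77.1% against the widest 7399 peaks of the 6 h list, a setting chosen after the data were seen. A 6 h peak was within 1 kb of 12.3% and within 100 kb of 56.0% of regions, and within 10 kb of 26.4% of those of at least 500 bp. Another 4-week peak was within 1 kb of 6.35%, within 100 kb of 36.3%, and within 10 kb of 17.4% of those of at least 500 bp. In the first 50% of rows lay 51.2%, 61.8% and 69.4% with the 3 width minimums. The difference of 6.01 points from narrower peaks was 2.99 to 11.6 points under 8 settings added after the data were seen. For spacing within the 4-week list, leaving out regions with a 4-week neighbour within 10 kb gives no value, since it removes what is counted. No paired analysis was possible because there was only 1 ChIP library at 6 h and 1 at 4 weeks. As the lists carry no read numbers, whether a site absent at 6 h was missed for lack of reads was not tested.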

Other observations

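Wide 4-week-only peaks also lay outside the position rule. Chromosome 20 had 41 of them among 55 wide 4-week peaks (74.5%, 61.0 to 85.3%), chromosome 19 had 31 of 41 (75.6%, 59.7 to 87.6%) and chromosome 16 had 37 of 54 (68.5%, 54.4 to 80.5%). Within 2 Mb of the ends of the other numbered chromosomes there were 54 of 80 (67.5%, 56.1 to 77.6%), with a median width of 430 bp. All of these intervals include the 69.8% of the region set. Chromosome X had 4 wide 4-week peaks, and all 4 overlapped a 6 h peak; 0 of 4 leaves an upper bound of 60.2% for the unshared part, below the 69.8% of the region set, from 4 peaks. On unplaced scaffolds 313 of 496 wide 4-week peaks (63.1%, 58.7 to 67.4%) had no 6 h partner. On the scaffolds that carried peaks of both lists this was 12 of 195 (6.15%, 3.22 to 10.5%). That choice leaves out every wide peak on a scaffold with no 6 h peak to share, so the low share is in part set by it. With the lists exchanged, 192 of 483 wide 6 h peaks on these scaffolds (39.8%) had no 4-week partner.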
